A study of Drosophila melanogaster with 8 samples.

Results

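The 8 Hox genes of Drosophila melanogaster (lab, pb, Dfd, Scr, Antp, Ubx, abd-A and Abd-B) were read in RNA-seq libraries of macrophages sorted from embryos. They were chosen by gene name, and all 8 had a row among the 17494 genes of the deposited tables. The libraries form 2 groups of 4, wild type (WT) and CG9005 mutant, named after the mutated gene, which is also called atossa. In both groups the embryos were at stage 11 and had been kept at 29°C, the macrophages carried a 3xmCherry tag by which flow cytometry sorted them, and polyA RNA was read in 50 base reads. The promoter behind the tag, the mutant allele, the parent strains and the number of embryos per library are not given by the sources at hand. Nothing says that replicates came from separate collections, so the spread behind each p-value may be technical. A stage field of the labels counts up from 11 to 18 over the 8 libraries and so largely follows genotype.

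Hox genes encode homeodomain transcription factors that give the segments of the body their identities. In the fly they lie in 2 clusters on chromosome 3R, in nearly the same order as the body regions that they pattern. The Antennapedia complex holds the head and thorax genes, and the bithorax complex holds the genes of the posterior thorax and the abdomen. Embryonic macrophages (hemocytes) arise in the head mesoderm and then spread through the whole embryo. Hox levels in sorted macrophages can therefore be read along the head to tail order of the genes as well as between genotypes.

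In the BDGP6 annotation the Antennapedia complex spans chr3R:6661427-6999228 from lab to Antp, and the bithorax complex chr3R:16656623-16972236 from Ubx to Abd-B. All members are protein-coding and lie on the minus strand except Dfd, on the plus strand. The genes span 10593 bases (Dfd) to 102976 bases (Antp), and their summed exons 2739 bases (Dfd) to 11791 bases (Abd-B). Exons of 6 members overlap no exon of another annotated gene. Ubx shares 1.19% of its exon bases with the antisense RNA PS4. Antp shares 50.1% with CG46458, a gene on its own strand that has no row in these tables.

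Recovered depth was 15782570 to 18942786 reads per library, with 8882 to 10593 genes above 0. CG9005 mRNA itself ranged from 72.9 to 114 TPM (transcript level scaled for gene length and library size) in WT and from 75.0 to 103 TPM in the mutant, so it does not check the genotype labels. Of 19 macrophage markers, 15 reached 1 TPM in at least 4 libraries. The engulfment receptor genes NimC4 and crq averaged 6039 and 443 TPM over the 8 libraries. The markers eater (at 0 in all), NimC1 and Hml, best known from larval blood cells, were under 1 TPM in every library. Markers of other cell types were also read. The 13 neural markers summed to 59.8 to 131 TPM in WT and 71.4 to 92.2 in mutant libraries, mostly from elav, and VGlut stayed under 1 TPM. The 7 markers of epidermis and trachea summed to 71.0 to 96.4 TPM in WT and 46.1 to 60.1 in mutant libraries. pnr was the highest of them in every library, at a mean of 45.8 TPM in WT and 34.3 in the mutant, so these sums lean on 1 gene. The 12 somatic muscle markers summed to 75.0 to 116 TPM in WT and 119 to 223 in mutant libraries. Sums were higher for the 4 crystal cell markers, at 458 to 842 TPM in WT and 418 to 544 in mutant libraries. The 6 salivary gland markers summed to 489 to 578 TPM in WT and 503 to 641 in mutant libraries, mostly from CrebA. The 4 glia markers summed to 90.5 to 163 TPM in WT and 114 to 144 in mutant libraries.

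WT replicate 3 had the highest value of Antp, Ubx, abd-A and Abd-B among all 8 libraries. It was highest for 22.5% of the 7827 tested genes, and WT replicate 4 for 21.3%. No Hox gene had a gap in WT replicate 3 past Dixon's 95% limit for 4 samples, with abd-A nearest to it at 0.816 of the WT range. Its neural sum of 131 TPM and its epidermis and trachea sum of 96.4 TPM were also the highest. The genotype differences and the profile likeness that rest on it are given with and without it.

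All 8 Hox genes were detected at low to middle levels, with the highest levels for Ubx and abd-A and the lowest for the head genes. Ordered by the mean over the 8 libraries, Ubx came first at 13.0 ± 5.40 TPM (SD, n = 8), then abd-A at 9.40 ± 4.23, Antp at 3.73 ± 1.94 and Abd-B at 3.13 ± 1.17 TPM. The genes of the head followed, with Dfd at 1.32 ± 0.934 TPM, Scr at 1.02 ± 0.393, pb at 0.929 ± 0.722 and lab at 0.583 ± 0.519 TPM. For scale, the tested genes had a median level of 12.7 TPM, and srp, the GATA factor gene of the blood lineage, averaged 28.0 ± 7.40 TPM. Among the 12015 genes above 0 in WT, Ubx lay at the 69.3 percentile of mean level, Antp at the 50.5 percentile and pb at the 22.0 percentile. In bulk RNA, fewer cells that express a gene and less of its RNA in each cell cannot be told apart.

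**Figure D1:**
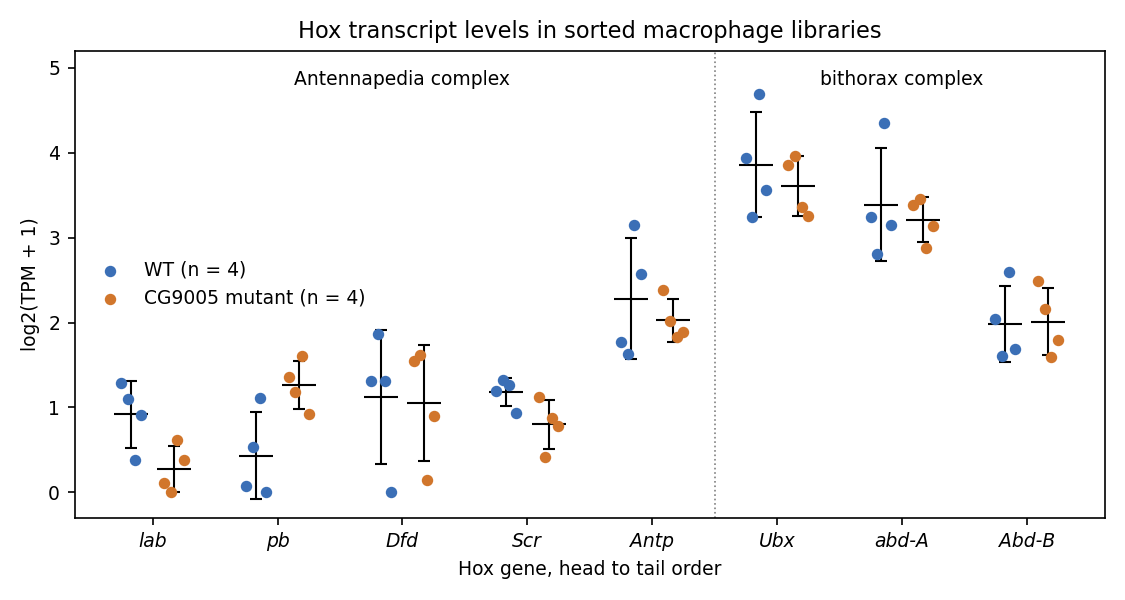
The plot gives log2(TPM + 1) of the 8 Hox genes, in head to tail order, with 1 point per library (blue WT, orange CG9005 mutant) and the mean with its SD in black. Ubx and abd-A are the highest genes in every library, and the groups overlap for all 8 genes.

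Ubx, which sets the identity of the posterior thorax and the anterior abdomen, was the highest Hox gene in each of the 8 libraries. The WT replicates held 14.3, 8.48, 24.9 and 10.8 TPM, and the mutant replicates 13.5, 14.5, 9.29 and 8.50 TPM. WT replicate 3 was the highest, at 2.22 times the mean of the other WT libraries, and the mutant values lay inside the WT range. Between 494 and 1155 reads stood behind each value.

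abd-A, which patterns the middle of the abdomen, followed Ubx in each library. Its WT values were 8.46, 6.01, 19.3 and 7.90 TPM, and its mutant values 9.47, 9.93, 6.36 and 7.76 TPM. WT replicate 3 was again the highest, at 2.59 times the mean of the other WT libraries. The Ubx level was 1.40 ± 0.169 times that of abd-A (SD, n = 8), with a range from 1.10 to 1.69, so the ratio of these neighbours varied less than either level.

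Abd-B, the most posterior Hox gene, which patterns the end of the abdomen and the genitalia, was lower in TPM. Its WT replicates held 3.12, 2.04, 5.06 and 2.21 TPM, and its mutant replicates 4.60, 3.46, 2.03 and 2.48 TPM. The groups overlapped over nearly their whole range, and WT replicate 3 and mutant replicate 1 were the high libraries. Between 323 and 700 Abd-B reads stood behind each value, against 448 to 1148 reads for abd-A. The summed exons of Abd-B, by which TPM divides its reads, hold 11791 bases, against 5477 for abd-A. Together the 3 bithorax complex genes made up 76.4 ± 4.12% of the summed TPM of the 8 Hox genes (SD, n = 8), from 68.0% in WT replicate 2 to 80.6% in mutant replicate 2.

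Antp, the thoracic gene of the Antennapedia complex, was at 2.41, 2.09, 7.86 and 4.96 TPM in the WT replicates and at 4.23, 3.03, 2.55 and 2.69 TPM in the mutant replicates. Of the 5 Hox genes of its complex, Antp alone was at 1 TPM or more in all 8 libraries. The 4 mutant values lay inside the WT range, which WT replicates 3 and 4 stretched upward. Its TPM times the annotated exon length did not give whole reads with the annotation used here, so no read count is given for it.

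**Figure D2:**
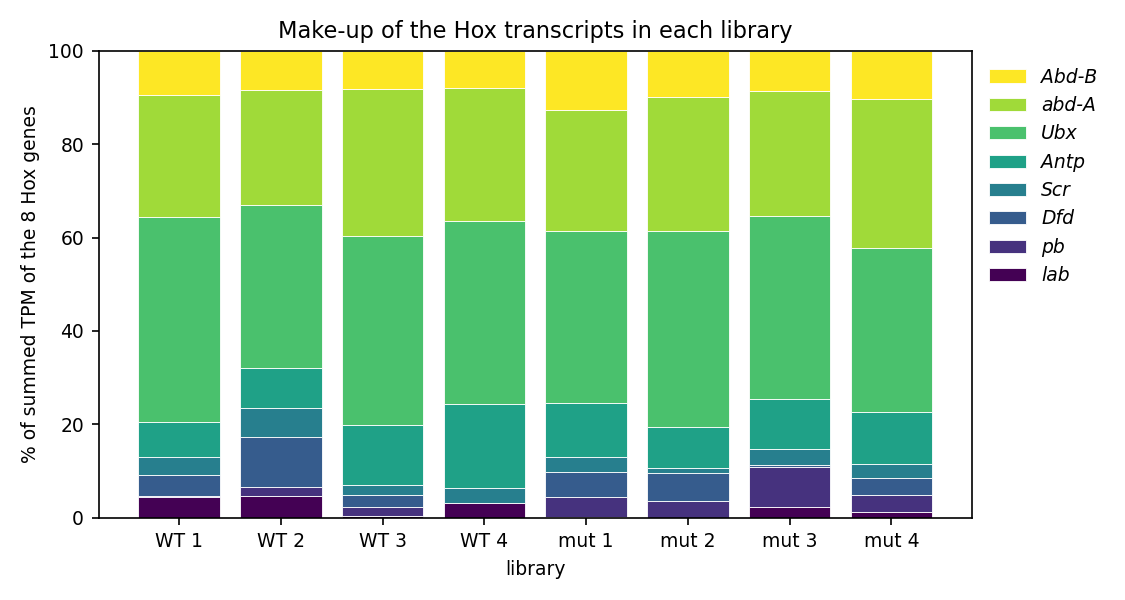
Each bar divides the summed TPM of the 8 Hox genes of 1 library into the shares of the genes, in percent, stacked in head to tail order from the bottom. Ubx and abd-A together take 59.6% to 71.9% in every library. The pb share is higher in every mutant library than in any WT library, while the lab shares overlap (not tested). In TPM the pb groups overlap. WT replicate 3 has 1.16 TPM of pb, 1.89% of its Hox sum of 61.4 TPM. Mutant replicate 4 has 0.902 TPM, 3.72% of its 24.2 TPM.

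Scr, which patterns the labial segment and the anterior thorax and is needed for the salivary glands, was near 1 TPM. The WT replicates held 1.29, 1.49, 1.41 and 0.917 TPM, and the mutant replicates 1.19, 0.339, 0.8291 and 0.719 TPM. All 4 mutant values lay below the WT mean, but the groups overlapped, since mutant replicate 1 exceeded WT replicate 4. Between 20 and 93 reads stood behind each value.

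Dfd, which patterns the mandibular and maxillary segments, varied most between libraries of the 7 tested members on the log2(TPM + 1) scale. It was at 1.48, 2.63, 1.48 and 0 TPM in the WT replicates and at 1.92, 2.06, 0.107 and 0.862 TPM in the mutant replicates. No read was seen in WT replicate 4, which at 3 reads allows up to 0.0884 TPM, and mutant replicate 3 held 4 reads. Low values thus occurred in both genotypes.

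pb, which patterns the adult mouthparts, was lower in WT libraries than in mutant libraries with 1 exception. The WT replicates held 0.0553, 0.453, 1.16 and 0 TPM, from 3, 23, 47 and 0 reads. The mutant replicates held 1.56, 1.27, 2.04 and 0.902 TPM, from 75, 61, 104 and 47 reads. All 4 mutant libraries lay above WT replicates 1, 2 and 4, and WT replicate 3 lay above mutant replicate 4, so the groups overlapped.

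lab, the most anterior Hox gene, which acts in the head and the midgut, ran the other way. It was at 1.44, 1.13, 0.303 and 0.874 TPM in the WT replicates, from 64, 47, 10 and 33 reads. In the mutant replicates it was at 0.0764, 0, 0.527 and 0.305 TPM, from 3, 0, 22 and 13 reads. All 4 mutant values lay below WT replicates 1, 2 and 4, and WT replicate 3 was again the library that made the groups overlap. The 0 in mutant replicate 2 allows up to 0.0763 TPM at 3 reads, and such floors cover counting error only.

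Neighbours in the order of levels were not all separated. Ubx exceeded abd-A, and abd-A exceeded Antp, in 8 of 8 libraries, although the ranges over all libraries overlapped. Antp exceeded Abd-B in 5 libraries, Abd-B exceeded Dfd in 7, and Dfd exceeded Scr in 6. The last places were not the same in all libraries. Scr exceeded pb in 4 of 4 WT libraries and in 0 of 4 mutant libraries, and pb exceeded lab in 1 of 4 WT libraries and in 4 of 4 mutant libraries. This order was read from the values, so no test is attached to it. The order and the shares of the Hox sum also depend on the summed exon lengths by which TPM divides the reads.

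The comparison of genotypes asks whether the Hox levels differ in macrophages of the CG9005 mutant. None of the 7 Hox genes that passed the filter (at least 1 TPM in at least 4 libraries) was called by limma at an adjusted p under 0.05, against 1.67% of all 7827 tested genes (0.882% higher and 0.792% lower in the mutant). At an unadjusted p under 0.05 the count was 0 of 7, against 12.1% of tested genes (lab, outside the filter, is given below), and limma's voom on recovered reads called 0 as well. Of the 7, 5 had a log2 difference below 0 and 2 above, where all 7827 tested genes had 4563 below and 3264 above. The median was −0.18, where all tested genes had −0.06. With WT replicate 3 left out, 5 were above 0 and 2 below, with a median of 0.04. The groups overlapped for every Hox gene, while 7.77% of tested genes had groups that did not overlap (3.25% with all mutant values above WT and 4.52% with all below). The authors' deposited table, which holds all 8 genes, has none of them at an adjusted p under 0.05 either.

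pb had the largest difference among the tested members. Its log2(TPM + 1) was higher in the mutant by 0.83 (SE 0.38, 95% interval −0.00 to 1.67, limma adjusted p = 0.412), and the mean TPM was 3.45 times that of WT. The exact permutation p was 0.0571, two-sided and unadjusted, where 70 assignments allow no p below 0.0286. With a pseudocount of 0.1 TPM the difference was 2.20, and with voom 3.38 (limma adjusted p = 0.448 and 0.285), since a pseudocount of 1 TPM shrinks differences of genes near 1 TPM. Without WT replicate 3 it was 1.06 (limma adjusted p = 0.265). In the authors' deposited table the log2 fold change of pb was 3.41, with a p of 0.0152 and an adjusted p of 0.566.

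lab did not pass the filter, since only 2 libraries reached 1 TPM. Without a filter its log2 difference was −0.64 (SE 0.25, 95% interval −1.20 to −0.09, limma p = 0.0284 unadjusted and 0.437 adjusted), and its exact permutation p was 0.0857, two-sided and unadjusted. The mean was 0.939 ± 0.484 TPM for WT and 0.227 ± 0.238 TPM for mutant libraries (SD, n = 4 each). The authors' deposited table gave lab a log2 fold change of −2.79 and an adjusted p of 0.952. The somatic muscle sums of 119 to 223 TPM in mutant libraries lay above the 75.0 to 116 TPM of WT, but without Act87E the ranges of the other 11 markers overlapped, at 59.8 to 123 and 43.3 to 79.9 TPM. The visceral mesoderm sums were 85.5 to 160 TPM in the mutant and 54.9 to 93.0 TPM in WT, and without HLH54F 56.5 to 89.6 and 54.6 to 89.4 TPM. All 10 tested somatic muscle markers were above 0 in the mutant, as were 3264 of all 7827 tested genes. Act87E was called, a call lost with any 1 library left out (limma adjusted p between 0.0550 and 0.111). All 6 tested epidermis and trachea markers were below 0, as were 4563 of the 7827 genes. For 2 of the 6 all mutant values lay below all WT values, against 4.52% of all tested genes. None of the 6 was called by limma or voom, and 2 had an unadjusted limma p under 0.05, against 12.1% of all tested genes. The part of these markers in the values of pb and lab was not tested.

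**Figure D3:**
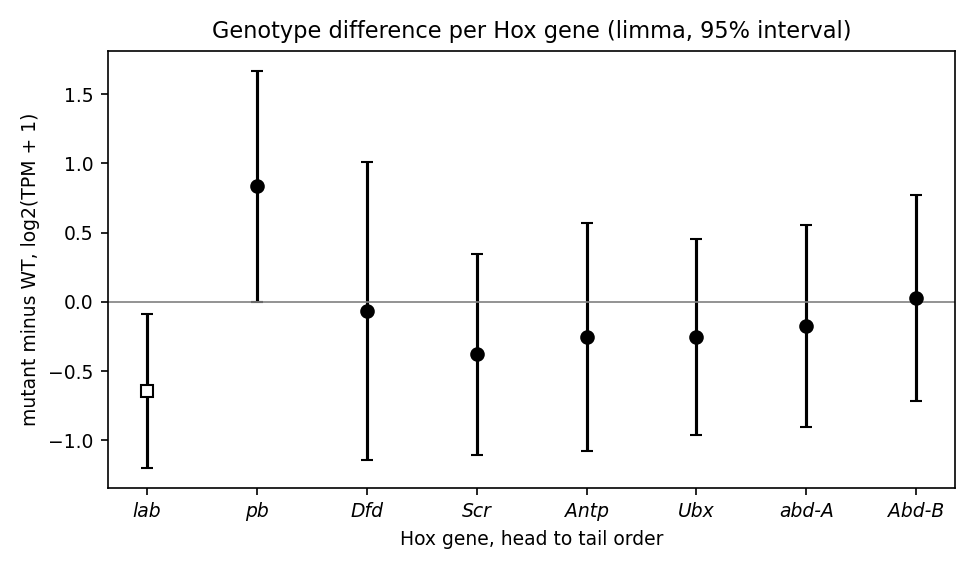
The plot gives the mutant minus WT difference of log2(TPM + 1) for each Hox gene in head to tail order, with its 95% interval from limma over 4 WT and 4 mutant libraries. The open square is lab, taken from the fit without a filter. pb is the highest at 0.83 and lab the lowest at −0.64, and the interval of every gene but lab reaches 0.

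The remaining differences were small against their errors. Scr differed by −0.38 (SE 0.33, limma adjusted p = 0.718), with an exact permutation p of 0.0571, two-sided and unadjusted. Antp and Ubx each differed by −0.25 (SE 0.37 and 0.32, limma adjusted p = 0.859 and 0.83), and abd-A by −0.18 (SE 0.33, limma adjusted p = 0.896). Without WT replicate 3 these 3 values were 0.04, 0.02 and 0.14, with the sign turned. Dfd differed by −0.07 (SE 0.49, limma adjusted p = 0.976) and Abd-B by 0.03 (SE 0.34, limma adjusted p = 0.986). The 95% intervals were wide, for Ubx from −0.96 to 0.46 and for abd-A from −0.91 to 0.55, and a p that misses the threshold does not show that these levels were alike.

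The 3 bithorax complex genes and Antp were each highest in WT replicate 3 and had related profiles over the libraries. Likeness was measured as the root mean square difference between profiles of log2(TPM + 1) over the 8 libraries, each centred on its mean. By this measure abd-A was the nearest of 7826 other tested genes to Ubx, at 0.15, where the profile of Ubx itself had a root mean square of 0.46. From abd-A, Ubx ranked 4, and Abd-B ranked 30 from Ubx. From Antp, abd-A ranked 19. From Scr, Dfd and pb the nearest other Hox gene was Abd-B each time, at ranks 3386, 508 and 1731.

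**Figure D4:**
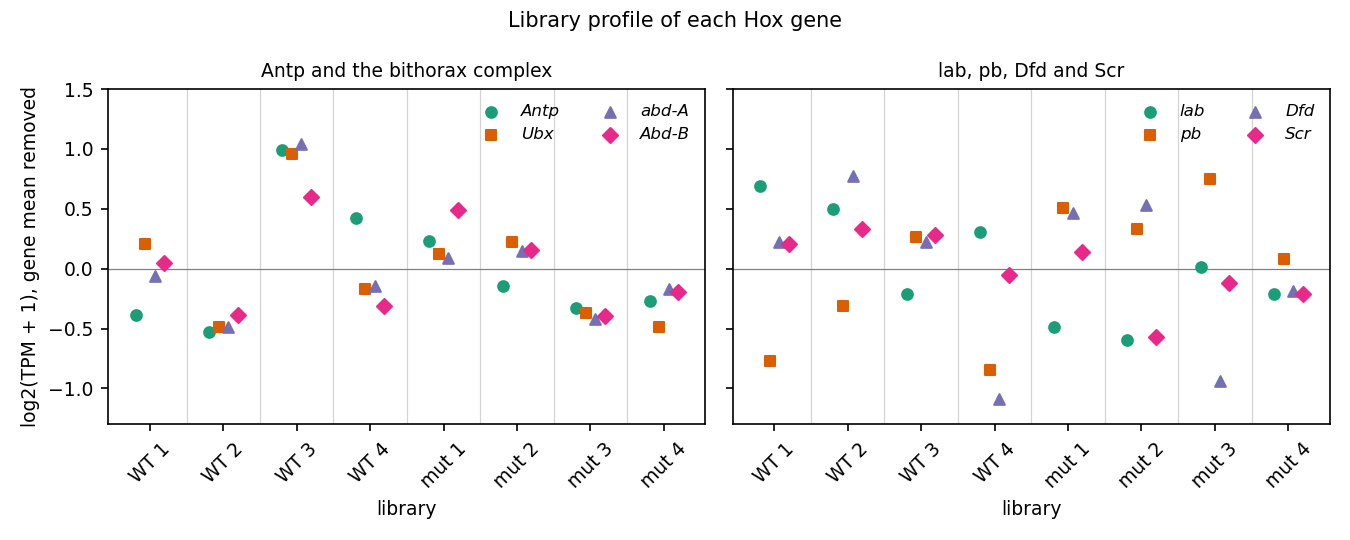
Each point is the log2(TPM + 1) of a Hox gene in 1 library after its mean over the 8 libraries is removed, for Antp and the bithorax complex genes on the left and for lab, pb, Dfd and Scr on the right. On the left all 4 genes peak in WT replicate 3, while on the right the genes part from each other and Dfd drops in WT replicate 4 and mutant replicate 3.

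Other genes came as close to single members. The second nearest gene to Ubx was NetB, a netrin that guides axons (0.16), and the nearest to abd-A were stan, a cadherin of planar cell polarity, and CG15309 (0.15 each). mub and RhoGAP100F were nearest to Abd-B (0.13 each), and krz, an arrestin gene, and Nup93-2, a nucleoporin gene, to Antp (0.17 and 0.18). CG3847 and vri, a leucine zipper factor gene, were nearest to Scr (0.11 each), Dbp73D, an RNA helicase gene, and CG4860 to pb (0.15 and 0.21), and spg and Mst36Fa to Dfd (0.27 and 0.29). Without WT replicate 3, abd-A ranked 11 from Ubx, Ubx ranked 49 from abd-A, Abd-B ranked 40 from Ubx and abd-A ranked 528 from Antp. Of the genes just named, Dbp73D alone still ranked 1, and the others ranked between 3 and 42. The nearest Hox gene was then abd-A for Scr, at rank 3657, and Abd-B for Dfd and pb, at ranks 557 and 1926.

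The summed TPM of the 8 Hox genes was 32.6, 24.3, 61.4 and 27.7 in the WT replicates and 36.5, 34.6, 23.7 and 24.2 in the mutant replicates. The neural markers summed to 78.8, 63.8, 131 and 59.8 TPM and to 91.0, 92.2, 77.1 and 71.4 TPM in the same libraries. The macrophage markers summed to 5816, 8509, 9394 and 8266 TPM and to 7361, 8713, 9059 and 9071 TPM. WT replicate 3 was the highest library in all 3 sums, but without NimC4 the other 18 macrophage markers were lowest there, at 1902 TPM against 2062 to 2756 TPM elsewhere. Mutant replicates 1 and 2 held the next 2 places in the Hox sum and the neural sum but not in the macrophage sum. For the neural sum this rested on elav. Without it the other 12 markers stood at 61.9 TPM in WT replicate 3 and 32.2 in mutant replicate 2. WT replicate 1 followed at 31.0 TPM, ahead of mutant replicate 1 at 30.0 TPM. The part of neural RNA in the Hox levels was not tested.

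**Figure D5:**
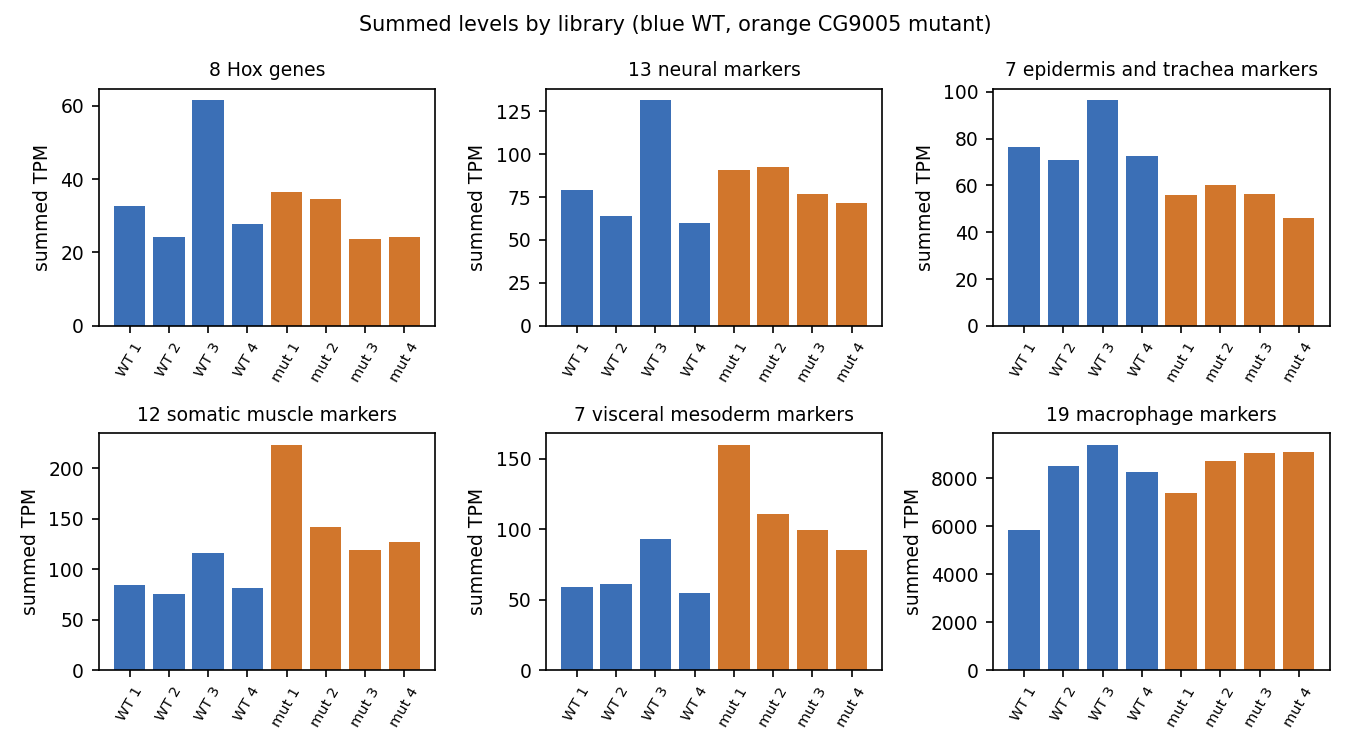
Bars give the summed TPM of the 8 Hox genes and of 5 marker lists in each library, blue for WT and orange for CG9005 mutant, each panel on its own axis from 0. WT replicate 3 is the highest bar for the Hox, neural and epidermis lists, and for the macrophage list through NimC4 (without it, WT replicate 3 is the lowest), and mutant replicate 1 is the highest for the muscle and visceral mesoderm lists.

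The other genes inside the 2 complexes were mostly at or near 0. In the Antennapedia complex 37 other genes had rows, of which 13 were at 0 in all 8 libraries and 5 averaged at least 1 TPM. Ama, a secreted immunoglobulin-domain adhesion protein encoded between the Hox genes, was by far the highest, at 284 ± 40.3 TPM in WT against 343 ± 36.8 in the mutant. ftz, the pair-rule homeobox gene beside Scr, was at 1.76 ± 1.52 and 1.14 ± 0.667 TPM. The noncoding RNAs pncr002:3R, CR45593 and CR42651 were at 1.80 ± 1.69, 1.66 ± 2.03 and 1.37 ± 0.612 TPM in WT. In the mutant they were at 1.27 ± 2.53, 1.01 ± 0.488 and 0.670 ± 0.465 TPM. pncr002:3R was at 0 in 4 of 8 libraries, and its mutant mean came from mutant replicate 1 alone, at 5.07 TPM. The WT mean of CR45593 came mostly from WT replicate 4, at 4.65 TPM. Ama, ftz, CR45593 and CR42651 were not called (limma adjusted p = 0.452, 0.870, 0.940 and 0.673), and pncr002:3R did not pass the filter.

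In the bithorax complex 10 other genes had rows, and only iab-8, a long noncoding RNA from between abd-A and Abd-B, averaged at least 1 TPM. It was at 1.31 ± 1.07 TPM in WT against 0.856 ± 0.333 in the mutant, with its highest value, 2.83 TPM, in WT replicate 3. iab-8 did not pass the filter and was not tested. Chosen after their values were seen, the noncoding RNAs bxd and iab-4, transcribed from the regulatory regions of Ubx and abd-A, reached at most 1.56 and 0.821 TPM. bxd was above 0 in all 8 libraries, with its highest value in WT replicate 3 as well.

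Several genes that act with or on the Hox genes were present at higher levels. Of 6 partners of Hox proteins 5 were tested, and hth and exd, the homeodomain cofactors that bind DNA with Hox proteins, were the highest. hth was at 70.4 ± 20.5 TPM in WT against 63.0 ± 16.8 in the mutant, and exd at 47.2 ± 14.5 against 40.5 ± 4.16 TPM (here and below mean ± SD, n = 4 each). None of the 5 was called by limma, none had an unadjusted p under 0.05, and voom called none.

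Polycomb group genes, which keep Hox genes silent where they were not switched on, were broadly expressed, with 21 of 22 tested. None was called by limma or voom, and 2 had an unadjusted p under 0.05, against 12.1% of all tested genes. The median log2 difference was −0.12. cg was at 96.2 ± 23.1 TPM in WT against 95.2 ± 12.8 in the mutant, and Jarid2 at 80.5 ± 16.2 against 58.4 ± 4.83 TPM. The trithorax group keeps Hox genes active, and the 25 genes listed with it include related factors, such as psq, that act at Polycomb response elements. All 25 were tested and 1 was called, against the 1.67% of all genes. The list had a median of −0.10, and its highest genes were lolal, at 151 ± 16.8 and 145 ± 11.6 TPM, and tna, at 134 ± 7.42 and 130 ± 22.3 TPM.

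The called gene was psq, which encodes a factor that binds GAGA repeats and acts at Polycomb response elements (chr2R:10557888-10617280, plus strand, BDGP6). It was at 51.0, 57.4, 103 and 46.9 TPM in the WT replicates and at 23.9, 27.7, 26.3 and 24.3 TPM in the mutant replicates. All 4 mutant libraries lay below all 4 WT libraries, and WT replicate 3 was the highest. psq fell by 1.23 on the log2 scale (SE 0.23, limma adjusted p = 0.0268), by 0.99 without WT replicate 3 (limma adjusted p = 0.0166), and by 1.20 with voom (adjusted p = 0.00442). The call was lost without WT replicate 2 or any 1 of the mutant replicates (limma adjusted p between 0.0569 and 0.0906).

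Genes upstream of the Hox genes and known targets showed no call. Of 24 segmentation genes, which set the Hox domains in the early embryo, 20 were tested, with a median of −0.28. None was called by limma or voom, and 1 had an unadjusted p under 0.05, against 12.1% of all tested genes. The highest were h, at 56.5 ± 26.6 TPM in WT against 50.5 ± 13.2 in the mutant, and ptc, at 23.2 ± 7.12 against 17.9 ± 2.62 TPM. Of 10 head patterning genes 9 were tested, with a median of −0.06 and none called by limma or voom. 2 of the 9 had an unadjusted p under 0.05, against the same 12.1%. All mutant values lay above all WT values for 1 of the 9 and below them for 2, against 3.25% and 4.52% of all tested genes. cnc was at 11.6 ± 2.64 and 9.28 ± 1.39 TPM, and btd, a head gap gene, at 6.25 ± 2.49 and 1.73 ± 1.11 TPM (limma adjusted p = 0.101).

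All 11 genes listed as embryonic Hox targets were tested, with 5 above and 6 below 0, where all tested genes had 3264 above and 4563 below. The median was −0.06, none was called by limma or voom, and none had an unadjusted p under 0.05. CrebA, a leucine zipper factor of secretory cells that Scr activates in the salivary gland, was at 523 ± 42.7 TPM in WT against 558 ± 61.2 in the mutant, far above Scr itself. rpr, a cell death gene that Dfd and Abd-B activate, was at 35.4 ± 15.0 and 25.5 ± 8.67 TPM.

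Among the marker lists, whose called genes are named after their values were seen, limma called Sr-CI as higher and gcm2 as lower among 15 tested macrophage markers, PPO1 as lower among 4 crystal cell markers, HLH54F as higher among 7 visceral mesoderm markers and Act87E as higher among 10 somatic muscle markers, where 1.67% of all tested genes were called. The calls of Sr-CI, PPO1 and HLH54F stood in all 8 fits with 1 library left out. That of gcm2 stood in 1 of 8 (limma adjusted p between 0.0273 and 0.149), and that of Act87E in 0 of 8. None was called by limma or voom among the tested markers of neural cells (9), glia (3), epidermis and trachea (6), salivary gland (5), endoderm (2), lymph gland and heart (5), fat body (1) and germline (3). At an unadjusted p under 0.05, where 12.1% of all tested genes lay, the neural list had 1 and the epidermis list 2. The lymph gland list had 1 and the other 5 lists 0. Adh and Fbp1 of the fat body list were at 0 in all 8 libraries, and vas, nos and osk of the germline list stayed under 1 TPM.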

How the data were processed

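The submitters' processing notes name STAR (2.5.1b), R (3.4.4), limma, edgeR, HTSeq (0.5.4p3) and the build BDGP6, without roles. The sources at hand give no strand setting or annotation release. The deposited expression values are TPM, 1 column per library, and each sums to 1000000. The authors' deposited table gives group means in TPM with an SD in the same unit, a signed fold score, a log2 fold change, a p-value, an adjusted p-value and a rank score for 11058 genes. 4 identical copies were present and 1 was used.

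Reads were recovered from TPM times union exon length (Ensembl release 115, matched for 17358 genes). For 98.8% to 99.1% of genes under 1000 reads the product, in steps of its library, was whole within 0.05 reads. The reads served for floors and for voom (7761 genes).

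The main test was limma 3.58.1, with a trend on mean level, in R 4.3.3 on log2(TPM + 1), for genes that reached 1 TPM in 4 libraries or more (3 with a library left out). Adjusted p-values follow Benjamini and Hochberg over all 7827 tested genes. Differences of low genes are understated on this scale.

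The Hox genes and all 6 pathway and 12 marker lists were chosen with earlier results of these data known. Named genes are all members, other genes of either complex with a mean of 1 TPM or more, up to 4 called genes and the 2 highest of each pathway list, and the 2 nearest profiles of each tested member. Leaving WT replicate 3 out of the likeness, and single markers out of the sums, was chosen after seeing the data.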

Additional observations from a re-analysis of the deposited data

How the results depend on the processing

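Under all 22 alternatives, 0 Hox genes were called. The count over all genes, 131, was 71 to 110 with 1 library left out, 52 with the replicate number as a block, 9 with the stage field as a covariate, 76 with no filter, 82 with a filter of 5 TPM, 210 at a threshold of 0.1 and 950 at an unadjusted p under 0.05, which was chosen after seeing the data. Same-numbered samples did not deviate together (correlations from −0.146 to 0.077), so the labels share only a number, and the block lost the call of psq (limma adjusted p = 0.0624). The psq call was also lost with the stage field, without a filter and without the trend (limma adjusted p = 0.446, 0.0694 and 0.0565). The stage field is 11 to 14 in WT and 15 to 18 in mutant libraries, so a fit with it can hardly tell the field from genotype. Calls lost and values moved in that fit, here and below, therefore say little about the genes. The order of levels had 2 neighbouring pairs alike in every library, and 2 to 3 with 1 library left out.

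Signs turned for members near 0, always short of the threshold. With 1 library left out, Dfd ranged from −0.44 to 0.23 (0.18 without WT replicate 2, 0.23 without mutant replicate 3), and it became 1.51 with the stage field, 0.088 with a pseudocount of 0.1 TPM and 0.50 with voom. Antp, Ubx and abd-A became 0.037, 0.024 and 0.14 without WT replicate 3, and with 1 library left out were lowest at −0.47, −0.46 and −0.37 without WT replicate 2. Antp was −0.70 with the stage field. Ubx became 0.16 with the stage field and abd-A 0.0031 with array weights. Abd-B became −0.10 and −0.07 without WT replicates 2 and 4, and −0.13 and −0.02 without mutant replicates 1 and 2. Scr and pb kept their signs under every alternative that tested them. lab was fitted under only 1 alternative, a filter of 0.1 TPM, which cannot change its own difference, so its sign was not checked. The causes were not tested. Libraries of 15782570 reads or more put 3 reads at 0.101 TPM or less for each Hox gene, and lab and pb rest on at most 64 and 104 reads per library. With the stage field as a covariate, which can hardly be told from genotype, the calls of Sr-CI, PPO1, gcm2 and Act87E were lost too. Those of gcm2 and Act87E were also lost with the block, with no filter, with a pseudocount of 0.1 TPM and without the trend. The gcm2 call was lost with quantile normalization and median centring as well.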
